A study of Mus musculus with 15 samples.

Results

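The genes studied were 10 immediate early genes: Fos, Fosb, Jun and Junb of the AP-1 family, Egr1, Egr2 and Egr3 of the Egr family, and Nr4a1, Nr4a2 and Nr4a3 of the Nr4a family. They were chosen by name, as the features of the deposited array table annotated with 1 of these symbols alone. Each symbol had exactly 1 such feature, and all 10 passed the filter on dim features, so they make up 10 of the 16257 genes tested. Levels were measured in group 2 innate lymphoid cells (ILC2s), lymphocytes without rearranged antigen receptors, taken from mouse lungs and hybridised to 15 Affymetrix arrays. The effector groups were adult females and adult males (3 arrays each) given 3 daily intranasal doses of IL-33, an epithelial alarm cytokine, and sampled on day 1 after the final dose. The naive adult groups were females and males at 8 weeks (3 arrays each), and the neonatal group was 10 days old and naive (3 arrays). No strain, allele or transgene is named in the labels, no group received the nasal dosing without IL-33, and neither the age of the effector adults nor the sex of the neonates is given. The labels call the arrays of a group biological replicates without saying how many mice each holds, so p-values measure the spread between these arrays. Dosing, or a batch that follows the groups, therefore cannot be told apart from IL-33, and precision is limited by 3 arrays per group.

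Immediate early genes are transcribed within minutes of a stimulus, from promoters already bound by factors such as SRF and CREB and without prior protein synthesis. Their transcripts are short-lived, so a level reflects recent signalling. Fos and Jun proteins pair through leucine zippers to form AP-1, Egr proteins are zinc finger activators, and Nr4a proteins are nuclear receptors that act without a known natural ligand. In lymphocytes AP-1 cooperates with NFAT at cytokine genes, while Egr2, Egr3 and the Nr4a receptors are known from T cells as restraints on activation.

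The cell type in the labels was checked against markers: all 13 measured ILC2 markers lay above the upper quartile of sensory receptor features in every group, and their mean level per array was 9.39 to 9.73 in effector adults, 9.03 to 9.34 in naive adults and 9.24 to 9.67 in neonates, on the log2 scale of the deposited values. Of the 15 listed ILC2 markers, Il1rl1 and Areg were not measured. Marker lists of 10 other cell types averaged between 3.31 and 6.06 on every array. Lying above that quartile did not set the ILC2 markers apart. In effector adults 8 of 8 T cell, 10 of 10 macrophage and monocyte and 8 of 8 epithelial markers did so too. In every group 9 of 10 endothelial markers did. That upper quartile of 1405 features, of genes that lymphocytes do not use, was taken as a background level and was 3.35 in effector adults, 4.07 in naive adults and 3.71 in neonates, and 0 arrays had a member at or below it. In RNA from a whole cell population, fewer cells with a transcript and less of it per cell cannot be told apart.

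Sequences before the start sites were read for the members that RefSeq promoters (build GRCm38.p6) covered, which were 8, all but Egr1 and Egr3, and the 250 bases before each start were searched on both strands for the core of the cyclic AMP response element (TGACG), the GC box (CCGCCC), the TATA box (TATAAA), the AP-1 site (TGANTCA) and the CArG box bound by SRF. The letters of a CArG box can hold those of a TATA box, which neither printed CArG box does. The windows of Fos, Fosb and Nr4a1 are shown as 3 of the 5 members that separated the effector from the naive arrays without overlap, and both CArG boxes of Egr2 because the motif is rare in the table. Each is printed 5′ to 3′ on the gene's strand, with the matches of either strand in capitals.
Fos, chr12:85473640-85473889, plus strand: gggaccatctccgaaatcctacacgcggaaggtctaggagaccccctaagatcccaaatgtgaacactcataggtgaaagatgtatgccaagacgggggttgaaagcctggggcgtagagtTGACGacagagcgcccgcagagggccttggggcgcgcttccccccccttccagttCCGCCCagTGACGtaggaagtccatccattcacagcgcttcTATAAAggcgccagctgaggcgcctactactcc
Fosb, chr7:19310046-19310295, minus strand: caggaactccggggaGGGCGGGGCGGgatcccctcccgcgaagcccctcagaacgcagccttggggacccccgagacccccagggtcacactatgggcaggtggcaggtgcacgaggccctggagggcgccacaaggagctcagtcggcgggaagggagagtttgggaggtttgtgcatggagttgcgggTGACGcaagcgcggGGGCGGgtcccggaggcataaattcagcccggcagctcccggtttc
Nr4a1, chr15:101266596-101266845, plus strand: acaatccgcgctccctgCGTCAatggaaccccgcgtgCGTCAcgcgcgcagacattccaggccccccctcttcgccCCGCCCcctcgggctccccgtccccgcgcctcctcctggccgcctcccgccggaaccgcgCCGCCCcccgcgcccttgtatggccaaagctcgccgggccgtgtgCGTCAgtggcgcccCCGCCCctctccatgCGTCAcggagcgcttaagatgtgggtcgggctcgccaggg
Egr2 first CArG box, chr10:67537484-67537513, plus strand: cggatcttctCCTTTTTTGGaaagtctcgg
Egr2 second CArG box, chr10:67537787-67537816, plus strand: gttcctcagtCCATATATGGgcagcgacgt

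In Fos a TGACG lay 66 to 62 bases before the start and a TATA box 33 to 28 bases before it. The TGACG of Fosb lay 60 to 56 bases before the start used here. Nr4a1 held 4 copies on the reverse strand, which appear as CGTCA in the printed strand. The windows of Fosb, Egr2, Nr4a1 and Nr4a3 lay partly or wholly inside the annotated span of their gene. Their starts are therefore not the outermost ones of the gene. The core was found in 7 of the 8 members, all but Jun, against 17.9% of 27025 genes with a promoter in the same table. The GC box was found in 7 of 8, all but Junb, against 32.9% of these genes. The TATA box was in Fos and Nr4a2 (13.0% of genes), the CArG box in Egr2 (1.40%), with Egr1 and Egr3 not searched, and the AP-1 site in 0 members (6.87%). Egr2 was searched at all of its 5 annotated starts and the other genes of the table at their first, which favours matches in Egr2. The percentages count each gene at its first start, where Egr2 held GC boxes but neither a CArG box nor a TGACG core. Its matches to both come from later starts, so for these motifs the counts and the percentages are not on the same basis. A match describes letters in this window and is not a measured binding site. Bases farther from a start were not searched, so a motif not found here may lie beyond the window.

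**Figure D1:**
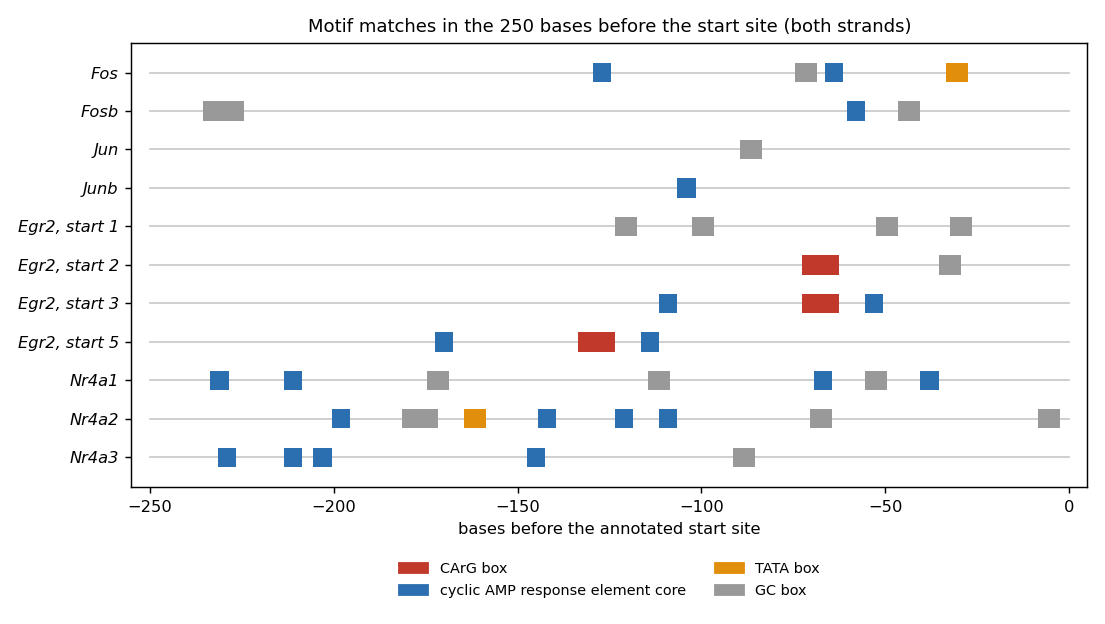
Positions of motif matches in the 250 bases before annotated start sites of 8 members (all but Egr1 and Egr3), on the horizontal axis as bases before the start. Coloured blocks are matches on either strand, with CArG boxes in Egr2 among the 8 searched and cyclic AMP response element cores in 7 members. In Egr2 the matches to both lie at starts other than its first. Start 4 of Egr2, 1 base from start 3, is left out.

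Of the 10 members, 9 were lower in effector than in naive adult ILC2s and Egr2 was higher. With the sexes weighted equally, the fall spanned the AP-1, Egr and Nr4a families and lay between 0.51 and 1.44 on the log2 scale. In females alone no Egr gene was lower at an adjusted p under 0.05 in limma. The members' median difference was -0.99, against 0.03 over all 16257 genes. Of all genes tested, 10.9% were lower and 23.7% higher at an adjusted p under 0.05 (limma, Benjamini-Hochberg). When each array was centred on its own median, the median over all genes moved by 0.14 to 0.17 and that of the members to -0.85, with every member keeping its direction.

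Fos, which encodes the founding AP-1 partner of Jun, ranged from 8.98 over a median of 9.14 to 9.40 on the 6 effector arrays, against 10.06, 10.23 and 10.42 on the 6 naive arrays. The groups did not overlap, and Fos fell by 1.09 ± 0.15 (moderated SE, limma adjusted p = 4.3e-05), which is 2.12-fold. Fosb, a close relative with a strong activating domain, ranged from 10.56 over 10.85 to 11.10 in effector adults, against 11.92, 11.95 and 12.34 in naive adults. It too separated the groups, and fell by 1.18 ± 0.13 (adjusted p = 6.4e-06). Levels of different genes come from different probes and are not set against each other.

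Jun, the partner that can also bind DNA with itself, ranged from 9.75 over 10.25 to 10.71 in effector adults, against 10.66, 11.81 and 11.94 in naive adults. It fell by 1.32 ± 0.25 (limma adjusted p = 7.4e-04), and the overlap came from naive female array 3, the only naive array below 11.34. Junb, which can replace Jun with weaker activation, ranged from 10.84 over 10.92 to 11.15 in effector adults, against 10.88, 11.87 and 11.98 in naive adults. The same naive female array 3 was its lowest naive value, with the next at 11.60. Junb fell by 0.73 ± 0.16 (limma adjusted p = 0.0030), and by 0.90 without that array.

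The Egr genes did not move as 1 group. Egr1, the member most widely used as an activation marker, had 6.69, 7.06 and 7.39 as lowest, median and highest level in effector adults, against 7.35, 7.46 and 7.85 in naive adults. It fell by 0.51 ± 0.14 (limma adjusted p = 0.0084), the smallest fall of the 9, and by 0.38 without a call after centring (limma adjusted p = 0.0539). Egr3 had 4.94, 6.23 and 7.41 in effector adults, against 7.20, 7.61 and 8.19 in naive adults. It fell by 1.44 ± 0.31 (limma adjusted p = 0.0020), the largest fall of the members, and its effector arrays also had the widest range, 2.47 against 0.99 in naive adults.

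Egr2 had 6.32, 7.27 and 8.26 in effector adults, against 6.21, 6.49 and 6.75 in naive adults. The effector arrays spread over 1.93 and 2 of the 6 lay within the naive range. Egr2 rose by 0.78 ± 0.29, at the edge of the threshold (limma adjusted p = 0.0479). The call ended with no filter on dim features (limma adjusted p = 0.0579), after a further quantile normalization (0.61, adjusted p = 0.11), and when any of 9 of the 12 adult arrays was left out, with adjusted p between 0.0555 and 0.125 and differences between 0.60 and 0.85. It held without effector female array 2, effector male array 2 or naive male array 3.

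All 3 Nr4a genes were lower in effector adults and none of them overlapped. Nr4a1, also called Nur77 and often read as a gauge of antigen receptor signalling in T cells, ranged from 10.29 over 10.49 to 10.61 in effector adults, against 11.14, 11.44 and 11.84 in naive adults, and fell by 0.98 ± 0.12 (limma adjusted p = 1.25e-05). Nr4a2, also known for its role in dopamine neurons, ranged from 7.89 over 8.29 to 8.48, against 8.67, 9.05 and 10.13 in naive adults, and fell by 1.00 ± 0.23 (adjusted p = 0.0030). Nr4a3 ranged from 7.86 over 8.30 to 8.52, against 8.61, 9.23 and 9.58 in naive adults, and fell by 0.93 ± 0.19 (adjusted p = 0.0016). Together with Fos and Fosb, 5 members thus had effector levels wholly below the naive levels, as did 4.93% of all genes tested.

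**Figure D2:**
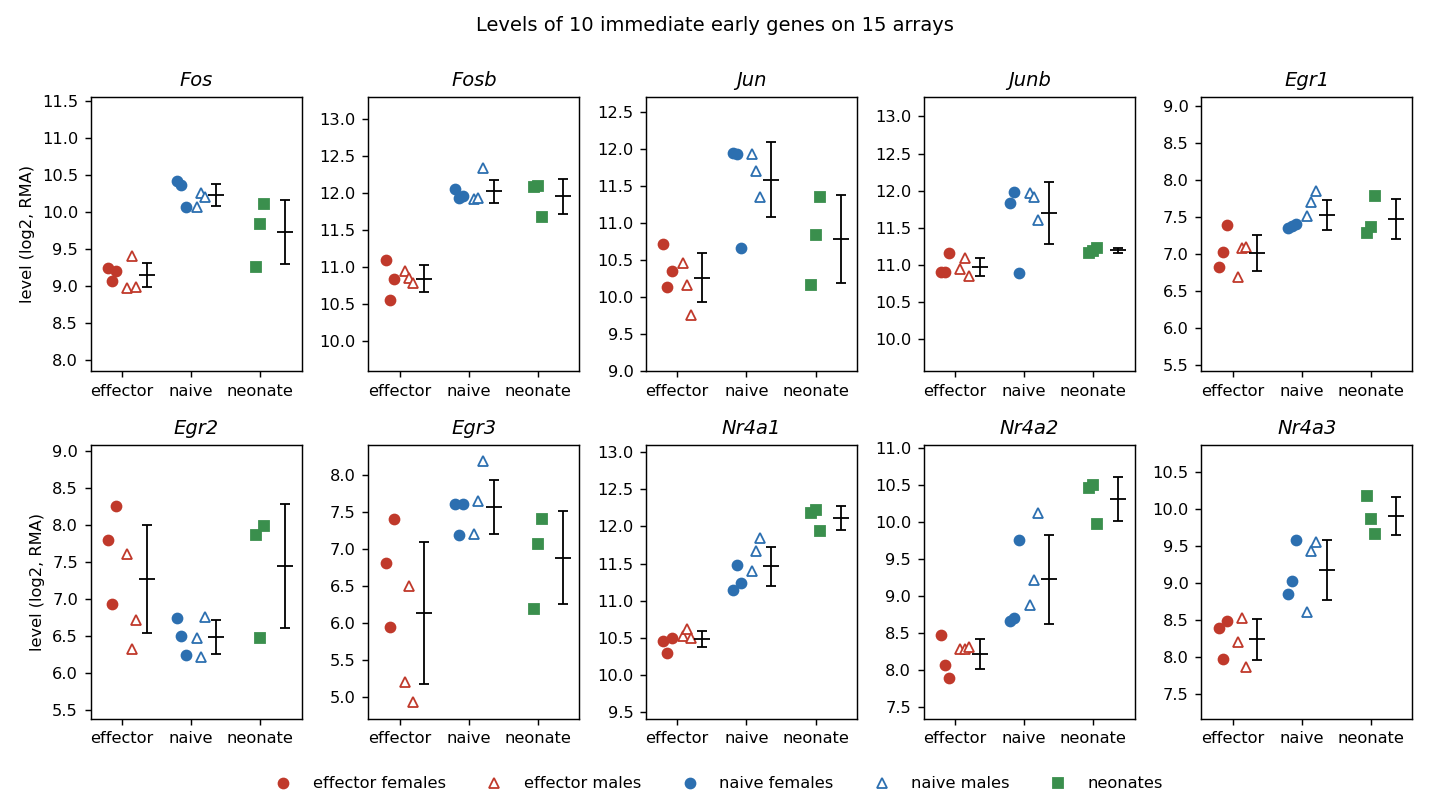
Deposited log2 levels of the 10 members on each of the 15 arrays, with effector, naive and neonatal arrays from left to right. Points are arrays, and the line with whiskers beside each group is its mean ± SD (n = 6 effector, 6 naive, 3 neonatal). Each panel spans the same height with its own start. Fos, Fosb and the Nr4a genes separate effector from naive adults, and the Nr4a genes are highest in neonates.

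The sexes were then taken apart, to ask whether both show the change. In effector against naive females 5 members were lower at an adjusted p under 0.05 (Fos, Fosb, Jun, Nr4a1 and Nr4a3), where 3.77% of all genes were lower. Fosb fell by 1.15 ± 0.18 (limma adjusted p = 5.5e-04), Fos by 1.12 ± 0.21 (adjusted p = 0.0019) and Nr4a1 by 0.87 ± 0.16 (adjusted p = 0.0021). Jun (-1.11 ± 0.35, limma adjusted p = 0.0455) and Nr4a3 (-0.86 ± 0.27, adjusted p = 0.047) were each lost without 5 of the 6 female arrays, Jun keeping its call only without naive female array 3 and Nr4a3 only without naive female array 1. Both were also lost with no dim filter, after centring and with the replicate block (limma adjusted p between 0.0521 and 0.074). Jun was lost with only the arrays compared (adjusted p = 0.056). Egr1 (-0.29 ± 0.19), Egr3 (-0.74 ± 0.43) and Nr4a2 (-0.89 ± 0.32) did not pass (limma adjusted p = 0.355, 0.291 and 0.078). Nr4a2 was called after a further quantile normalization (-1.05, adjusted p = 0.04) and with array weights (-0.72, adjusted p = 0.0452). Junb, at -0.58 ± 0.23, was called once naive female array 3 was left out (-0.92, limma adjusted p = 0.0035). Egr2 was at 1.17 ± 0.41 in females and missed the threshold (limma adjusted p = 0.0727), with effector levels of 7.80, 6.94 and 8.26 all above the naive levels of 6.74, 6.50 and 6.24, as was so for 22.6% of genes in that direction. It was called without effector female array 2 (1.53, limma adjusted p = 0.039), and also after centring, with array weights, with only the arrays compared, without the 3 least correlated arrays and with the replicate number as a block (adjusted p between 0.024 and 0.0462).

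In effector against naive males all members but Egr2 were lower, 9 in all, where 6.25% of all genes were lower. None of these 9 overlapped between the groups, as was so for 13.8% of genes in that direction. Egr3 fell by 2.13 ± 0.43 (limma adjusted p = 0.0024), with levels of 5.21, 6.51 and 4.94 in effector males, against 7.20, 7.65 and 8.19 in naive males. Jun fell by 1.53 ± 0.35 (limma adjusted p = 0.0050) and Fosb by 1.20 ± 0.18 (adjusted p = 2.5e-04). Egr1 fell by 0.74 ± 0.19 (limma adjusted p = 0.0114), a call that ended without effector male array 1 (adjusted p = 0.0587). Junb lost its call without effector male array 3. Nr4a2 lost it without effector male array 2 or 3 or naive male array 3, and Nr4a3 without effector male array 3 or naive male array 2 or 3, with adjusted p between 0.0524 and 0.0799 for these 3 genes. Without the 3 least correlated arrays, naive male array 2 was the only naive male array left, so calls are not read there. The differences were then -0.96 for Junb, -0.75 for Egr1 and -0.92 for Nr4a2. Egr2, at 0.40 ± 0.41, did not pass (limma adjusted p = 0.524), and was at 0.04 without effector male array 1 and 0.68 without effector male array 2.

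A sex difference in the response was not shown. The test of the female minus the male response called 0 members and 0% of all genes in limma, with 1 member and 866 genes at an unadjusted p under 0.05. That member was Egr3, at 1.38 ± 0.61 (limma adjusted p = 0.909), with a 95% interval of 0.08 to 2.69. For Egr2 the difference was 0.77 ± 0.58, with an interval of -0.47 to 2.01, so that differences of more than 1 log2 unit lie inside it. Females against males gave 0 called members among naive adults, where 0.209% of all genes were called and 0 members had an unadjusted p under 0.05. Among effector adults it gave 0 called members, where 0.0308% of genes were called and 1 member, Egr3 at 1.18 ± 0.43, had an unadjusted p under 0.05.

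Neonatal ILC2s were naive like the 8-week adults and are set here as the younger group. Naive adults had lower Nr4a1 and Nr4a2 than neonates, and no other member passed. These were 2 of 10 members, where 6.04% of all genes were lower and 4.12% higher in naive adults. Nr4a1 lay between 11.14 and 11.84 on the 6 naive adult arrays, against 12.19, 12.22 and 11.93 on the neonatal arrays, and was lower in naive adults by -0.65 ± 0.14 (limma adjusted p = 0.0088). Nr4a2 lay between 8.67 and 10.13, against 10.47, 10.51 and 9.98 in neonates, and differed by -1.09 ± 0.28 (limma adjusted p = 0.0219). Naive male array 3 reached into the neonatal range for Nr4a2. Nr4a3 differed by -0.73 ± 0.24 without passing (limma adjusted p = 0.0622), although its naive adult values, at most 9.58, lay wholly below the neonatal 10.18, 9.87 and 9.66. Of all genes, 6.88% had naive adult levels wholly below the neonatal ones, as Nr4a1 and Nr4a3 had. Nr4a3 passed without naive female array 3 (-0.84, limma adjusted p = 0.0384) or naive male array 3 (-0.82, adjusted p = 0.0394). With all arrays it passed after centring (-0.76, limma adjusted p = 0.0478) and with a trended and robust prior (-0.73, adjusted p = 0.0445). The call of Nr4a2 ended without neonatal array 1 (limma adjusted p = 0.0832) or 2 (adjusted p = 0.0732). Both calls ended when the naive adult and neonatal arrays alone were fitted, at the same differences (limma adjusted p = 0.0649 for Nr4a1 and 0.0886 for Nr4a2).

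No AP-1 member passed in this comparison. Fos was at 0.50 ± 0.18 in naive adults against neonates (limma adjusted p = 0.0888), Jun at 0.80 ± 0.30 (adjusted p = 0.107) and Junb at 0.50 ± 0.20 (adjusted p = 0.128), while Fosb was at 0.07 ± 0.16. Neonatal levels were 9.26, 9.83 and 10.10 for Fos and 10.16, 10.84 and 11.35 for Jun, so array 1 was lowest and array 3 highest in both. For Junb the neonatal arrays lay close together, at 11.16, 11.19 and 11.23. Naive female array 3 decided both Jun and Junb here: without it Junb (0.67, limma adjusted p = 0.0089) and Jun (1.02, adjusted p = 0.0229) were higher in naive adults, and with Nr4a3 5 members were called in all. Fos passed without neonatal array 3 (0.69, limma adjusted p = 0.0309) and was at 0.26 without neonatal array 1, where Jun was at 0.49.

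Among the Egr genes, Egr1 was at 0.06 ± 0.17 and Egr3 at 0.69 ± 0.37 in naive adults against neonates, neither passing. Egr2 was at -0.96 ± 0.36 (limma adjusted p = 0.103), with neonatal levels of 7.87, 6.47 and 7.98. Neonatal array 2 stood low among them, inside the naive adult range, and without it Egr2 was lower in naive adults by -1.44 (limma adjusted p = 0.0174).

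Effector adults had lower levels than neonates for 5 members, where 5.93% of all genes were lower and 14.7% higher. Because this comparison shares its arrays with the others, its values are given beside them and not as separate evidence. The Nr4a genes had the widest gaps: Nr4a2 was lower in effector adults by -2.09 ± 0.28, (limma adjusted p = 1.5e-04), Nr4a3 by -1.66 ± 0.24 (adjusted p = 0.000255) and Nr4a1 by -1.64 ± 0.14 (adjusted p = 4.25e-06). Fosb followed at -1.11 ± 0.16 (limma adjusted p = 0.000256). These 4 members and Junb had effector levels wholly below the neonatal ones, as did 7.92% of all genes. Fos, at -0.59 ± 0.18 (limma adjusted p = 0.0303), overlapped, and its call ended without effector female array 2, effector male array 1 or 3, or neonatal array 2 or 3 (adjusted p between 0.0604 and 0.132). With all arrays the call of Fos also ended after centring (-0.48, limma adjusted p = 0.0798) and with array weights (-0.57, adjusted p = 0.0736). Jun, Junb, Egr1, Egr2 and Egr3 did not pass, at -0.52, -0.22, -0.46, -0.17 and -0.75. Egr1 passed without effector female array 3 (-0.53, limma adjusted p = 0.0393).

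Ordered by mean level, Nr4a1 thus ran from 10.48 ± 0.11 in effector adults (SD, n = 6) through 11.46 ± 0.26 in naive adults (SD, n = 6) to 12.11 ± 0.16 in neonates (SD, n = 3), with no overlap between neighbours. Nr4a3 had the same order, at 8.24 ± 0.28, 9.17 ± 0.41 and 9.90 ± 0.26, again with no overlap, though its upper step did not pass in the main model. In Nr4a2 the order was 8.22 ± 0.21, 9.23 ± 0.60 and 10.32 ± 0.29, with 1 naive array in the neonatal range. Fos, Jun, Junb and Egr3 had neonates between the adult groups, and for each of these the step between naive adults and neonates did not pass. For Fosb and Egr1 the naive adult and neonatal means differed by less than their SDs (12.02 ± 0.16 and 11.96 ± 0.24 for Fosb, 7.53 ± 0.20 and 7.48 ± 0.27 for Egr1).

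**Figure D3:**
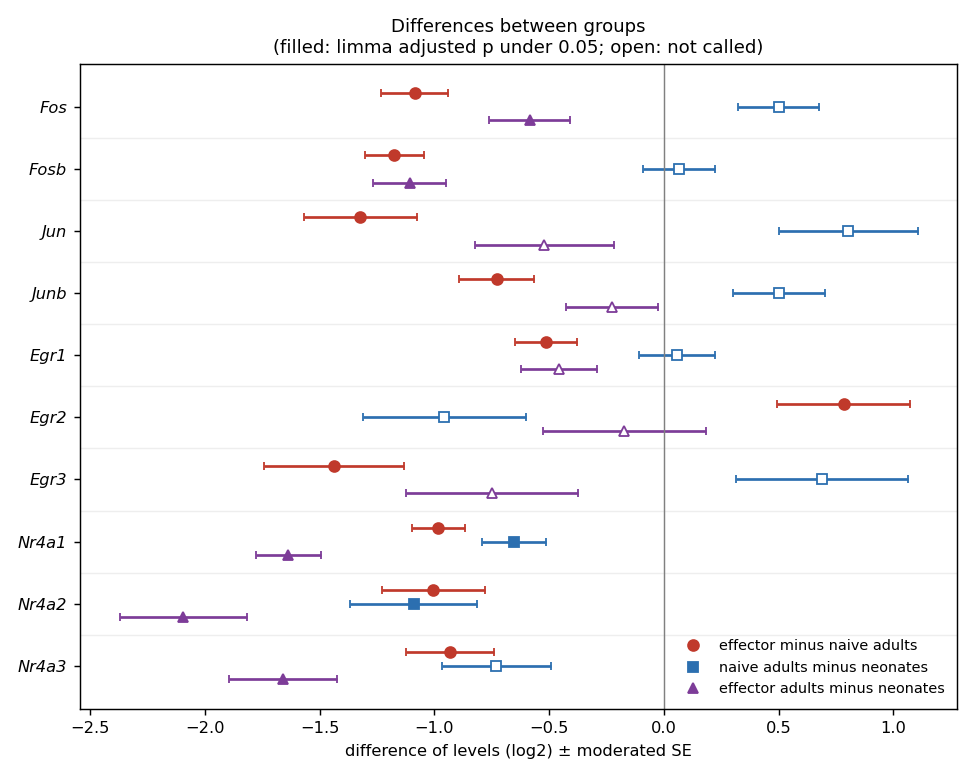
Log2 differences of the 10 members in the comparisons of effector with naive adults, naive adults with neonates and effector adults with neonates, each with its moderated SE. Filled symbols passed at a limma adjusted p under 0.05. The Nr4a genes lie left of 0 in all 3 comparisons, Egr2 alone lies right of 0 for effector against naive adults, and Fos, Jun, Junb and Egr3 lie right of 0 for naive adults against neonates with open symbols.

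The mean levels of markers of other cells also varied between the groups. The 8 measured T cell markers averaged 5.11 to 5.34 on effector arrays, 5.39 to 5.59 on naive adult arrays and 5.68 to 5.80 on neonatal arrays, the order seen for the Nr4a genes, with Cd8a in the background range in naive adults. The 8 mast cell and basophil markers averaged 4.72 to 5.36 in effector adults, 4.86 to 5.03 in naive adults and 5.34 to 6.06 in neonates, with 6, 5 and 6 of them above background. The 10 endothelial markers averaged 4.34 to 4.70, 4.56 to 5.28 and 4.69 to 4.90, with 9 above background in each group. The 7 fibroblast markers averaged 3.995 to 4.17, 3.92 to 4.28 and 4.51 to 4.61. The 6 measured B cell markers averaged 4.64 to 4.99 on effector arrays, below the 5.01 to 5.40 of naive adult arrays, and 4.95 to 5.26 on neonatal arrays, with 5, 4 and 4 above background. The 8 neutrophil markers averaged 3.48 to 3.74, 3.74 to 4.57 and 3.68 to 4.04, with 5 above background in each group. The macrophage, eosinophil, NK and ILC1, and epithelial lists overlapped between effector and naive adults. The part of these cells in the members' differences was not tested. The sensory receptor features averaged 2.72 to 2.85 per array in effector adults, 3.13 to 3.62 in naive adults and 3.03 to 3.37 in neonates. Features taken as background were thus also lower on effector than on naive adult arrays, without overlap and in the direction of most members. The part of this shift in the members' differences was not tested.

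Genes of the same pathways, listed with earlier results of these data known, were compared over the same arrays. Their counts stand against 23.7% of all genes higher and 10.9% lower in effector than in naive adults, and 4.12% higher and 6.04% lower in naive adults than in neonates. Among 39 tested other immediate early genes 24 were lower and 6 higher in effector than in naive adults, with a median of -0.49. Between naive adults and neonates 9 were lower and 1 higher in naive adults, with a median of -0.30. The list's mean per array was 8.02 to 8.25 in effector adults, 8.38 to 8.58 in naive adults and 8.76 to 8.85 in neonates. Btg2, which restrains cell division, fell by 1.77 ± 0.14 in effector adults and Nfkbid, a nuclear IκB protein gene, by 1.52 ± 0.15 (limma adjusted p = 2.7e-07 and 2.6e-06). Dusp4, a nuclear phosphatase that switches off MAP kinases, went against the members: it rose by 2.58 ± 0.15 in effector adults (limma adjusted p = 8.0e-09). Trib1, a pseudokinase, rose by 1.46 ± 0.18 (limma adjusted p = 1.7e-05). Dusp4 and Plk3, a stress-responsive kinase, were lower in naive adults than in neonates by -1.93 ± 0.19 and -1.90 ± 0.18 (limma adjusted p = 1.5e-05 for both). Sgk1, a kinase induced by glucocorticoids, and Plk2 were lower in naive adults by -1.13 ± 0.16 and -1.11 ± 0.24.

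Other bZIP proteins that can partner or replace Fos and Jun moved in both directions in effector against naive adults, with 4 of 14 higher and 3 lower and a median of 0.14. Batf3, which lacks an activating domain and pairs with Jun proteins, rose by 2.17 ± 0.16 (limma adjusted p = 8.7e-08), with a mean of 7.22 in effector adults and 5.05 in naive adults. Its relative Batf rose by 2.00 ± 0.14 (limma adjusted p = 5.5e-08). Mafk rose by 0.69 ± 0.17 (limma adjusted p = 0.0058) and Atf3, itself an immediate early gene, fell by 0.72 ± 0.21 (adjusted p = 0.017). Against neonates 1 gene was higher and 1 lower in naive adults: Jund at 0.60 ± 0.17 (limma adjusted p = 0.0357) and Fosl2, a Fos relative, at -0.86 ± 0.17 (adjusted p = 0.0053).

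The listed regulators of the Egr and Nr4a families included the factors that act at their promoters. In effector against naive adults 3 of 14 were higher and 1 lower, with a median of 0.13, shares no larger than those over all genes. Srf, which encodes serum response factor, rose by 1.12 ± 0.15 (limma adjusted p = 3.6e-05), its partner Elk3 by 0.74 ± 0.14 (adjusted p = 9.2e-04) and the Egr corepressor gene Nab1 by 0.94 ± 0.20 (adjusted p = 0.0022). Mrtfb, another SRF partner, fell by 0.38 ± 0.14 (limma adjusted p = 0.0439). Only Crem differed between naive adults and neonates, at -0.81 ± 0.17 (limma adjusted p = 0.0068). It encodes repressors and activators that bind cyclic AMP response elements.

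Kinases of the MAPK cascade, which relay signals to immediate early promoters, were higher in effector than in naive adults for 6 of 14 tested members and lower for 0, with a median of 0.31. Map3k8 rose by 1.23 ± 0.14 (limma adjusted p = 8.2e-06), Map2k3 by 1.11 ± 0.22 (adjusted p = 0.0010) Mapkapk2 by 1.07 ± 0.18 (adjusted p = 0.000285) and Mapk9 by 0.74 ± 0.12 (adjusted p = 2.5e-04). Between naive adults and neonates 5 of 14 were lower in naive adults, led by Map3k8 (-1.52 ± 0.17, limma adjusted p = 4.8e-05) and Map2k3 (-1.24 ± 0.26, adjusted p = 0.0081), with Mapk9 at -0.79 ± 0.15 and Map3k1 at -0.73 ± 0.17, and with a median of -0.49.

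Heat shock genes, which isolation of cells from tissue often raises together with immediate early genes, were higher in effector than in naive adults for 6 of 12 tested members and lower for 1. Their mean per array was 7.41 to 8.02 in effector adults, 7.07 to 7.38 in naive adults and 6.94 to 7.21 in neonates, so that effector arrays were highest and naive adult and neonatal arrays overlapped. The mitochondrial chaperonin gene Hspd1 rose by 1.72 ± 0.17 (limma adjusted p = 2.6e-06) and Hsph1 by 1.39 ± 0.21 (adjusted p = 1.4e-04), with Bag3 at 0.79 ± 0.14 and Hsp90aa1 at 0.75 ± 0.12 (adjusted p = 4.0e-04 and 1.6e-04). Hspa1a, the stress-inducible chaperone gene, was higher in naive adults than in neonates by 1.88 ± 0.57 (limma adjusted p = 0.0474). Between effector and naive adults Hspa1a was at 0.58 ± 0.46 without passing (adjusted p = 0.357). Hspa1b at -0.16 ± 0.40 and Dnajb1 at -0.07 ± 0.13 did not pass there either (limma adjusted p = 0.786 and 0.697). The labels do not say how the cells were isolated, and their part in the members' differences was not tested.

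**Figure D4:**
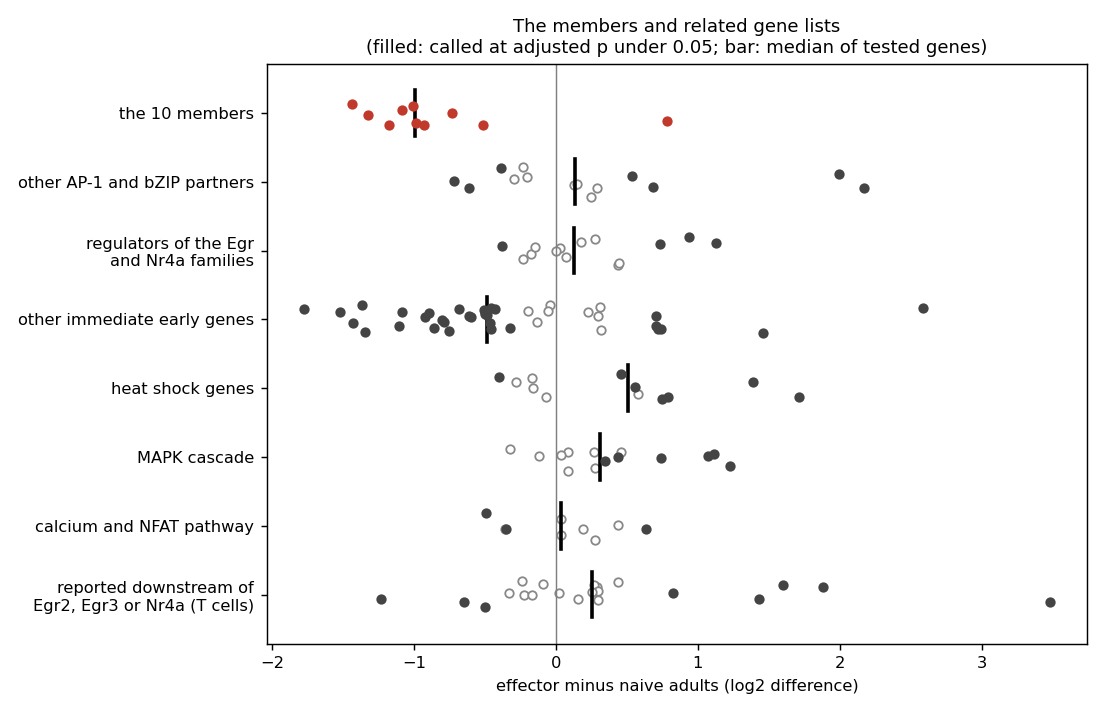
Log2 differences of effector minus naive adults for the 10 members and for the tested genes of 7 related lists, 1 point per gene. Filled points passed at a limma adjusted p under 0.05, and bars are medians of all tested genes of a list. The members have a median of -0.99 and the other immediate early genes -0.49, while the heat shock list has 0.51 and the MAPK list 0.31.

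The members also differed in how alike their patterns were over the 15 arrays, measured as the root mean square difference of levels after centring each gene on its own mean. The closest pair was Nr4a1 and Nr4a3, at 0.26 log2 units, followed by Fosb and Nr4a1 at 0.31 and Fos and Junb at 0.32. The farthest pair was Egr2 and Egr3, at 1.23. Among all other genes tested, the closest to Nr4a1 was Nfkbiz at 0.19, with means of 8.43 in effector adults, 9.51 in naive adults and 10.07 in neonates. Nfkbiz was also closest to Nr4a3, at 0.29, and Dusp5 was among the 3 closest to both, at 0.22 and 0.33. The closest gene to Fos was Tspan32 at 0.15, with Il7r at 0.17, to Fosb Tcn2 at 0.18, to Jun Txnip at 0.24, to Junb Hdnr at 0.20 and to Egr1 4932438H23Rik at 0.17. Egr2 and Egr3 had no close match, the nearest being Mospd2 at 0.40 and Csf1 at 0.52. Nr4a2 was nearest to Gm20199 at 0.36 and next to Tiparp at 0.39. These distances describe the same 15 arrays and carry no test.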

How the data were processed

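The authors deposited 1 log2 level per feature and array, made with Affymetrix Expression Console and RMA per the submitters' processing notes. RMA corrects background, normalizes quantiles between arrays and summarises probes. Software versions are not given here.

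Of 41345 features, 23521 had 1 gene symbol and were used. Features above their array's percentile 40 on at least 3 arrays were kept, and of several features of a gene the one with the highest mean, which left 16257 genes. With limma 3.58.1 (R 4.3.3) 1 model with 5 group means took in the 15 arrays (10 residual and 5.05 prior degrees of freedom). Sexes were weighted equally, tests were two-sided, and p was adjusted by Benjamini-Hochberg over all genes, with calls under 0.05. Errors are moderated SEs unless called SD. No 2 arrays held identical values. The code was also run on simulated arrays with independent noise and few changed genes. That setting is unlike these data and does not bear on the calls given here.

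Members, lists and motifs were chosen with earlier results of these data known. Named list genes are up to 4 called genes with the largest difference per list, not all of which are printed. For each member the 3 nearest genes were found. Alternatives were other filters, centring, quantile normalization, priors, array weights, a replicate block, subsets of arrays and a 2-fold threshold. Figures used matplotlib 3.10.9.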

Additional observations from a re-analysis of the deposited data

Results flagged for a closer look

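For each member the 6 effector and the 6 naive adult arrays, sexes together, were searched for a single array far from the rest. Of 20 such sets 2 held one, where chance gives about 1 in 20. For Fosb naive male array 3 was high, at 12.34 against a next value of 12.05. For Junb naive female array 3 was low, at 10.88 against a next value of 11.60.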

How the results depend on the processing

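The 9 members that were lower in effector than in naive adults kept that direction under every alternative run and when any adult array was left out. The counts that follow come without shares over all genes, so they show how far calls held and not how members compare with other genes. With a call that also needs 1 log2 unit, 5 of the 10 members were called in effector against naive adults, 3 in females and 1 between naive adults and neonates. In females no dim filter gave 3 called members and array weights 8, against 5. Between naive adults and neonates array weights gave 1 and a fit to only the arrays compared gave 0, against 2. The causes were not tested. Leaving out each array in turn gave 9 to 10 called members for effector against naive adults, 3 to 5 in females, 6 to 9 in males, 1 to 5 for naive adults against neonates and 4 to 6 for effector adults against neonates. It turned the sign of differences near 0 that were not called: Fosb (-0.070 to 0.14) and Egr1 (-0.039 to 0.21) in naive adults against neonates, and Egr2 (-0.66 to 0.10) in effector adults against neonates. The 3 arrays least correlated with their groups were neonatal array 2 and naive male arrays 1 and 3.

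The replicate numbers did not pair the arrays: deviations of same-numbered arrays correlated at -0.11 to 0.10 and not every array correlated best with its own number. With the replicate block 10 members were called for effector against naive adults, 4 in females and 9 in males, against 10, 5 and 9 without it. It called 3 for naive adults against neonates and 6 for effector adults against neonates, against 2 and 5. Of all 16257 genes, the block called 5511, 2169, 3932, 1533 and 3178 in these comparisons, in the same order, against 5628, 2276, 4048, 1652 and 3346. In females the block lost Jun and Nr4a3 and gained Egr2, which is higher, and it gained Egr2 for naive adults against neonates (-0.96, limma adjusted p = 0.0414) and Egr1 for effector adults against neonates (-0.46, adjusted p = 0.0336).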

Other observations

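Genes reported downstream of Egr2, Egr3 or Nr4a proteins in T cells did not move as 1 group. Of 21 tested, 5 were higher and 3 lower in effector than in naive adults, with a median of 0.25, close to the 23.7% and 10.9% of all genes. The inhibitory receptor gene Pdcd1 rose by 1.60 ± 0.19 and Socs3, a brake on cytokine signalling, by 1.43 ± 0.17 (SE, n = 6 arrays per group, limma adjusted p = 1.1e-05 and 1.5e-05). Tigit and Havcr2, which also encode inhibitory receptors, averaged 6.84 and 5.21 in effector adults and were higher than in naive adults (limma adjusted p = 3.8e-08 and 2.6e-06). Their naive adult means of 3.36 and 3.33 lay below the background level of 4.07, so no size is given for these differences. Bcl2l11, which encodes the death protein BIM, had the order of the Nr4a genes, with means of 5.08 in effector adults, 6.31 in naive adults and 7.55 in neonates. It fell by 1.23 ± 0.24 in effector against naive adults (limma adjusted p = 9.2e-04) and was lower in naive adults than in neonates by -1.24 ± 0.29 (adjusted p = 0.014). Tnfrsf9, a costimulatory receptor gene, was lower in naive adults than in neonates by -1.39 ± 0.35 (limma adjusted p = 0.0218).

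Among 9 tested genes of the calcium and NFAT pathway, 1 was higher and 2 were lower in effector than in naive adults. The calcineurin subunit gene Ppp3cb rose by 0.63 ± 0.19, Ppp3ca fell by 0.35 ± 0.12, and Rcan1, an NFAT target that restrains calcineurin, fell by 0.49 ± 0.16 (limma adjusted p = 0.018, 0.0289 and 0.0246). Between naive adults and neonates 0 of the 9 passed in limma.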
